A study of Mus musculus with 6 samples.

Results

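Efferocytosis is the uptake of apoptotic cells by phagocytes, and 10 of its genes were followed here through excess salt: the receptors *Mertk*, *Axl* and *Tyro3*, their ligands *Gas6* and *Pros1*, the bridging protein gene *Mfge8*, the integrin subunits *Itgav* and *Itgb5*, the endocytic receptor *Lrp1* and the engulfment adaptor *Elmo1*. They were taken by gene symbol, and all 10 were among the 15903 genes whose counts summed to 10 or more over the libraries. RNA-sequencing was done on bone-marrow-derived macrophages (BMDMs), which arise in culture when bone marrow is grown in M-CSF, here from 3 *Cx3cr1*GFP mice on the C57BL/6J background, a line with a GFP sequence in the *Cx3cr1* locus. Cells of each mouse gave an unstimulated control library and a library of cells treated with 62 mM excess NaCl for 24 h, so that 6 libraries form 3 pairs. Only adherent cells were sequenced, M-CSF was present in both groups, and the ages of the mice are not given in the sources used here. No library with another osmolyte was analysed here, so NaCl and its osmolarity cannot be told apart.

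MerTK, Axl and Tyro3 form the TAM family of receptor tyrosine kinases. They do not touch the dying cell themselves but bind Gas6 or protein S (the product of *Pros1*), vitamin K-dependent proteins that hold phosphatidylserine exposed on apoptotic cells. MFG-E8 bridges phosphatidylserine to the integrins αvβ3 and αvβ5, LRP1 recognises calreticulin on the target, and ELMO1 works with DOCK proteins to activate Rac at the forming phagocytic cup. MerTK is the TAM receptor most associated with resting tissue macrophages, whereas Axl is known as a receptor induced by inflammatory stimuli.

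In NaCl-treated BMDMs *Mertk* and the ligand gene *Gas6* were lower than in control cells of the same mouse, while no other member passed the test. The test was edgeR's quasi-likelihood test on raw counts with the mouse as a block, and a gene passed when its p-value, Benjamini-Hochberg adjusted across the 15903 genes, was under 0.05. Of the 10 members 2 passed as lower, beside 4.3% of all genes tested, and 0 passed as higher, beside 4.6%. At an unadjusted p under 0.05 there were 3, *Mertk* and *Gas6* as lower and *Mfge8* as higher, beside 22.1% of all genes tested in either direction. The median log2 fold change was 0.03 over the 9 members other than *Tyro3*, whose counts were too few for a fold, and -0.02 over all genes. Without the block, 0 of the 10 passed edgeR's test, beside 0.176% of all genes lower and 0.478% higher, and 1, *Mertk*, had an unadjusted p under 0.05, beside 12.6%. DESeq2 without the block called 1 member lower, which was *Mertk*, beside 1.21% of the 12817 genes with an adjusted p.

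The total counts were between 8520433 and 20123570 in control libraries and between 4088065 and 11610020 in NaCl libraries, and the smallest and the largest library came from mouse 3. Expression is given as CPM, edgeR's counts scaled to the TMM-normalized library size. Of 8 macrophage markers, all were among the genes tested. *Adgre1*, the gene of F4/80, averaged 1614 ± 215 CPM in control cells and 1406 ± 206 CPM with NaCl (n = 3). Of these markers 3 rose in the paired fit, *Csf1r*, *Lyz2* and *Cd14*, and *Csf1r* did not pass without the block (adjusted p = 0.0523 in edgeR). Over all genes tested, 4.6% were higher and 4.3% lower in the paired fit, shares to be read beside each marker count here. The median log2 fold change of the list was 0.16. Its summed level was from 15216 to 16549 CPM in control and from 24006 to 31751 CPM in NaCl, of which *Lyz2* alone had 9818 ± 524 and 19148 ± 3609 CPM. The 9 neutrophil markers held 2 lower genes in the paired fit and 0 without the block, with sums from 247 to 539 CPM in control and from 268 to 390 CPM in NaCl. The 5 monocyte markers held 1 higher gene in either fit, *Ifitm6*, with sums from 159 to 260 CPM in control and from 140 to 326 CPM in NaCl. The 7 dendritic cell, 2 B cell and 3 stromal markers tested did not pass, with median log2 fold changes of -0.19, -0.49 and -0.60. Their sums lay from 785 to 991, from 5.25 to 9.66 and from 0.906 to 4.34 CPM in control and from 747 to 1027, from 2.90 to 10.4 and from 0.447 to 3.59 CPM in NaCl. The B cell genes *Ms4a1* and *Pax5* and all 6 erythroid genes listed were not among the genes tested. The part of these markers in the results below was not tested, and in bulk RNA fewer cells of a type and less RNA per cell cannot be told apart.

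*Mertk* (ENSMUSG00000014361.6, chromosome 2) encodes the TAM receptor MerTK and was among the genes the study had singled out on these same libraries. In mice 1, 2 and 3 it had 1005, 989 and 1515 counts in control cells and 590, 422 and 158 counts after NaCl. Scaled, these were 114, 89.6 and 76.4 CPM in control and 65.9, 38.3 and 37.9 CPM in NaCl. Every NaCl library lay below every control library, which 10.1% of all genes tested also showed, and *Mertk* was the only such member, while no member (0) lay wholly above, beside 8.92%. The mouse with the highest control level, mouse 1, also kept the highest level in NaCl. Control cells averaged 93.4 ± 19.2 CPM and NaCl-treated cells 47.3 ± 16.1 CPM (n = 3 each). *Mertk* fell in the paired fit, with a log2 fold change of -1.01 (standard error 0.13, 95% interval from -1.27 to -0.75, adjusted p = 4.28e-06 in edgeR). Without the block the log2 fold change was -0.97 and the adjusted p 0.12. Among the 525 genes that fell with a mean of at least 100 counts, 30 fell further on the log2 scale, so that *Mertk* ranked 31. None of its exonic bases (0%) lies in another gene of GENCODE M21 and none of its 75-base windows (0%) occurs in another gene.

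*Gas6* (ENSMUSG00000031451.7, chromosome 8), the gene of the ligand with affinity for all TAM receptors, was at 262, 292 and 218 CPM in control cells of mice 1, 2 and 3 and at 207, 231 and 127 CPM after NaCl. It was lower in NaCl in each mouse, but the groups overlapped, since NaCl replicate 2 lay above control replicate 3. The means were 257 ± 37.1 and 188 ± 54.4 CPM (n = 3 each). *Gas6* fell in the paired fit, with a log2 fold change of -0.48 (standard error 0.12, 95% interval from -0.73 to -0.23, adjusted p = 0.0111 in edgeR). Its adjusted p was 0.424 without the block. The call was lost in edgeR without mouse 1 (adjusted p = 0.0821, log2 fold change -0.54) and without mouse 3 (0.216 and -0.33), and was kept without mouse 2 (5.51e-06 and -0.54). Of its exonic bases 1.33% overlap *Tmem255b* on the opposite strand, and the libraries do not hold strand. *Mertk*, *Gas6* and *Pros1* were each lower in 3 of 3 mice, as were 23.4% of all genes tested.

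The log2 ratio within mice was lowest in mouse 2 for *Mertk* (-1.22) and in mouse 3 for *Gas6* (-0.78). Whether their falls have a common cause was not tested. Promoter windows were taken for *Mertk* and *Gas6*, the members that fell, and for *Axl*, whose interval included 0. They run from 250 bases before to 50 bases after the transcription start, are written 5′ to 3′ on the strand of the gene and come from RefSeq on GRCm38.p6. Capitals mark the GC box GGGCGG and the core of the tonicity element TGGAAA that NFAT5 binds, each searched on both strands, which do not overlap here. The windows are chr2:128698665-128698964 (plus strand) for *Mertk*, chr8:13494486-13494785 (minus strand) for *Gas6* and chr7:25788684-25788983 (minus strand) for *Axl*.
Mertk: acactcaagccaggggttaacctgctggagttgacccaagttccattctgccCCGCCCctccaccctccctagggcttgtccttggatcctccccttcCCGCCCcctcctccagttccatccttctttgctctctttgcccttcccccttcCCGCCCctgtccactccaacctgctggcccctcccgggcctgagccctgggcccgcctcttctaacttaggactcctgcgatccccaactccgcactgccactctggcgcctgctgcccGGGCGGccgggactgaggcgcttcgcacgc
Gas6: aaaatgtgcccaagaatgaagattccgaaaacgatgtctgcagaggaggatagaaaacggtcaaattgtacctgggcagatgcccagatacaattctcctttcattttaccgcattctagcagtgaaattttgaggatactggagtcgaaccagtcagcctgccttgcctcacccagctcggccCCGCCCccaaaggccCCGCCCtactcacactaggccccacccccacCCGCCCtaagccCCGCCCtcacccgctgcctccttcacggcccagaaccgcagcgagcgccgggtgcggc
Axl: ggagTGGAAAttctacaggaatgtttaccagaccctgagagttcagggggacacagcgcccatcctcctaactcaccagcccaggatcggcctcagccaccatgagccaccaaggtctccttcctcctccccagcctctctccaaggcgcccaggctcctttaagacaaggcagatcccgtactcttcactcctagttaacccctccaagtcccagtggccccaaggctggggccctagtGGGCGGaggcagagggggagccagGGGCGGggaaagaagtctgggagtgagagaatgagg
*Mertk* and *Gas6* each held 4 GC boxes and *Axl* held 2. Of the other members, which did not pass either, *Tyro3* held 6, *Pros1* 5, *Mfge8* 4 and *Itgb5* 3. *Itgav* and *Lrp1* held 1 each, and the windows of *Elmo1* held 3 and 0. At least 1 GC box was present in 10 of the 11 windows of the members and in 35.7% of all 32851 promoter windows. The letters TGGAAA were in the window of *Axl*, in that of *Tyro3*, and in 21.4% of all windows. They were not among the letters of the *Mertk* and *Gas6* windows. The direct repeat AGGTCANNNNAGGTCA bound by LXR, a receptor known to regulate *Mertk*, was in 0 of the 11 windows and in 0.0152% of all. The motifs were chosen after the values were seen, and a match describes letters, not binding.

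**Figure D1:**
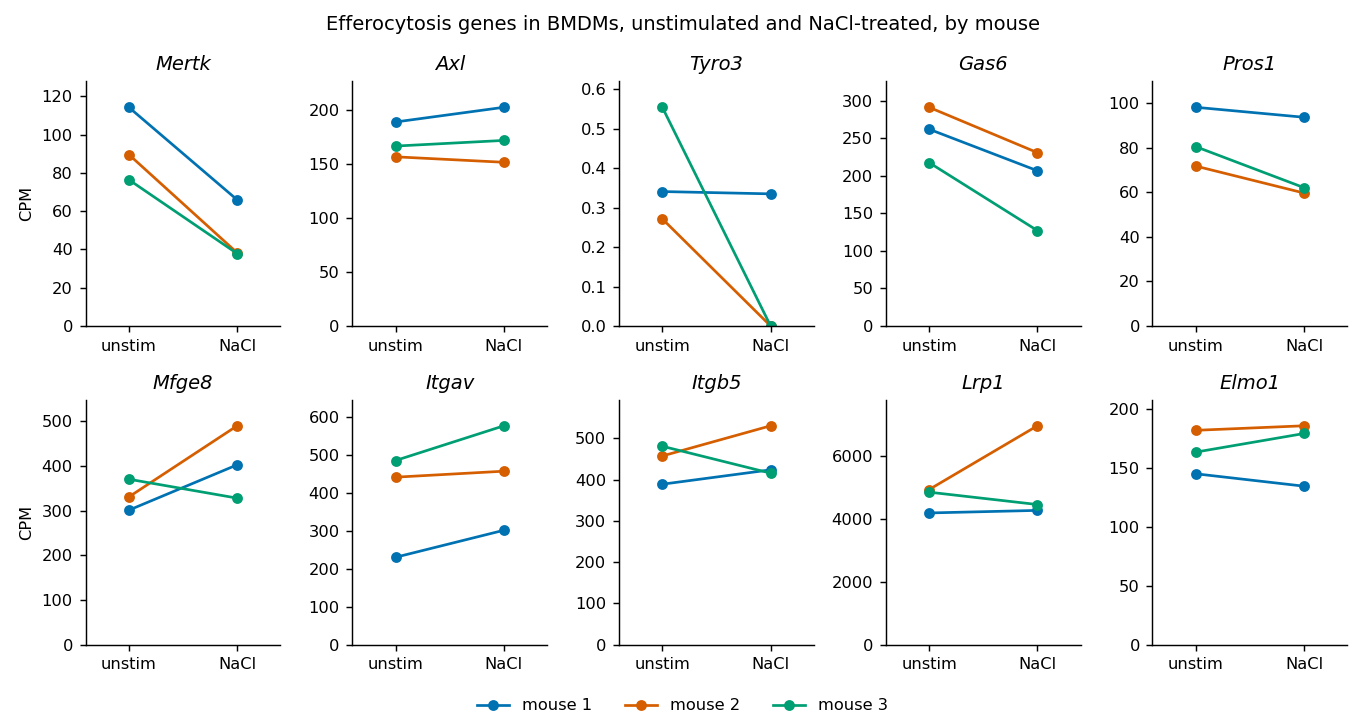
CPM of the 10 members in unstimulated control (unstim) and NaCl-treated BMDMs, with 1 panel per gene, the vertical axis from 0 and a line joining the libraries of each mouse. The 3 lines of *Mertk*, of *Gas6* and of *Pros1* run down, the groups are apart only for *Mertk*, and *Tyro3* lies at or under 0.555 CPM.

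*Axl* (ENSMUSG00000002602.17, chromosome 7), the TAM receptor that shares its ligand Gas6 with MerTK, was at 189, 157 and 167 CPM in control and at 203, 152 and 172 CPM in NaCl. It was higher in mice 1 and 3 and lower in mouse 2, and the groups overlapped. The log2 fold change was 0.03 (95% interval from -0.20 to 0.27, adjusted p = 0.912 in edgeR), an interval that lies above that of *Mertk*. *Tyro3* (ENSMUSG00000027298.18, chromosome 2), the third TAM receptor, had 3, 3 and 11 counts in control and 3, 0 and 0 counts in NaCl. A count of 0 allows up to 3 counts, which is 0.272 CPM in NaCl replicate 2 and 0.719 CPM in NaCl replicate 3, and 5 of the 6 libraries held at most 3 counts. Over each group there were 17 and 3 counts, a ratio of NaCl to control of 0.29 with an exact 95% interval from 0.0544 to 1.00 that covers counting error only. A difference in *Tyro3* was not detectable at this depth.

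The balance of the TAM receptors was also measured within each library, as the ratio of *Mertk* to *Axl* raw counts, which does not depend on how libraries are scaled. In mice 1, 2 and 3 it was 0.604, 0.571 and 0.458 in control and 0.325, 0.252 and 0.22 after NaCl. All 3 control ratios lay above all 3 NaCl ratios. On the log2 scale the ratio was -0.89 ± 0.21 in control and -1.93 ± 0.29 in NaCl (SD, n = 3 each), a difference of -1.04, with -0.89, -1.18 and -1.06 in mice 1, 2 and 3. The exact permutation test gave p = 0.1 (two-sided, the smallest p that 3 against 3 allow) and 0.3 after adjustment over the 3 ratios examined. With *Axl* at a log2 fold change of 0.03, the difference of -1.04 largely restates that of *Mertk* (-1.01) and is no separate evidence.

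Protein S is the other TAM ligand. *Pros1* (ENSMUSG00000022912.9, chromosome 16) was at 98.1, 71.7 and 80.5 CPM in control and at 93.6, 59.6 and 62.0 CPM in NaCl. It was lower in NaCl in each mouse by a small amount, with log2 ratios of -0.07, -0.27 and -0.37 in mice 1, 2 and 3, and mouse 1 was highest in both groups. The log2 fold change of -0.23 (95% interval from -0.48 to 0.01) did not pass the threshold (adjusted p = 0.264 in edgeR). The ratio of *Gas6* to *Pros1* counts was 2.67, 4.06 and 2.71 in control and 2.21, 3.87 and 2.05 in NaCl. Mouse 2 stood above the other mice in both groups, and the groups overlapped. The ratio was lower in NaCl in 3 of 3 mice, by -0.27, -0.07 and -0.40 on the log2 scale. The mean difference of -0.25 was smaller than the SD between mice (0.34 in control and 0.50 in NaCl), with p = 0.5 in the exact permutation test without pairing (two-sided, 0.6 after adjustment) and p = 0.25 in the exact sign-flip test over mice, the smallest that 3 mice allow.

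**Figure D2:**
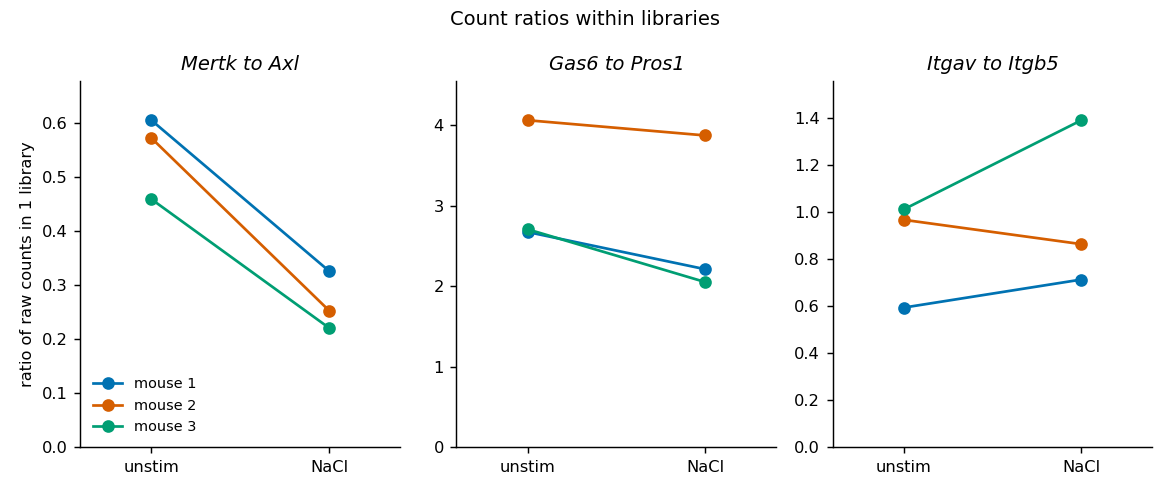
Ratio of raw counts of gene pairs of like role in the same library, for unstimulated control (unstim) and NaCl-treated cells of each mouse, with the vertical axis from 0. The *Mertk* to *Axl* ratio lay between 0.458 and 0.604 in control and between 0.22 and 0.325 in NaCl, whereas the other ratios overlapped between the groups.

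Of the bridging and integrin genes, *Mfge8* (ENSMUSG00000030605.16, chromosome 7) was at 301, 331 and 371 CPM in control and at 403, 490 and 328 CPM in NaCl. It was higher in mice 1 and 2 and lower in mouse 3. The log2 fold change of 0.27 (95% interval from 0.00 to 0.54) had an adjusted p of 0.217 in edgeR, and without mouse 3 the log2 fold change was 0.50 with an adjusted p of 0.0346. *Itgav* (ENSMUSG00000027087.12, chromosome 2), the αv subunit, was at 231, 442 and 486 CPM in control and at 302, 458 and 578 CPM in NaCl. The mice differed more than the treatments did, since mouse 1 was lowest in both groups and its NaCl library lay below the control libraries of mice 2 and 3. Each mouse was higher in NaCl, the only such member, beside 20.1% of all genes tested. The log2 fold change of 0.23 (95% interval from -0.01 to 0.47) had an adjusted p of 0.262 in edgeR, which became 0.0134 without mouse 2 (log2 fold change 0.33), and 5.9% of its exonic bases overlap *Gm13684* on the opposite strand. *Itgb5* (ENSMUSG00000022817.16, chromosome 16), the β5 subunit that pairs with αv, was at 389, 457 and 481 CPM in control and at 424, 530 and 415 CPM in NaCl, with a log2 fold change of 0.04 (95% interval from -0.20 to 0.29). It was higher in mice 1 and 2 and lower in mouse 3, and 6.48% of its 75-base windows occur in *Gm38317*. The ratio of *Itgav* to *Itgb5* counts was from 0.593 to 1.01 in control and from 0.713 to 1.39 in NaCl, and the groups overlapped (difference 0.19 on the log2 scale, exact permutation test, two-sided, p = 0.6, 0.6 after adjustment).

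*Lrp1* (ENSMUSG00000040249.16, chromosome 10), a large endocytic receptor of the LDL receptor family, was at 4180, 4924 and 4841 CPM in control and at 4261, 6950 and 4448 CPM in NaCl. NaCl replicate 2 stood above the other 5 libraries, which lay between 4180 and 4924 CPM. The log2 fold change was 0.13 (95% interval from -0.13 to 0.40, adjusted p = 0.615 in edgeR) and was -0.04 without mouse 2. *Elmo1* (ENSMUSG00000041112.18, chromosome 13) was at 145, 182 and 163 CPM in control and at 134, 186 and 179 CPM in NaCl. It was lower in mouse 1 and higher in mice 2 and 3, with a log2 fold change of 0.02 (95% interval from -0.22 to 0.26, adjusted p = 0.954 in edgeR), and 3.2% of its exonic bases overlap *Gm32036* on the opposite strand. For *Axl*, *Itgb5*, *Elmo1*, *Mfge8*, *Itgav* and *Lrp1* the paired intervals leave no room for a fall of -0.48, the point estimate of *Gas6*. The interval of *Gas6* itself reaches up to -0.23.

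**Figure D3:**
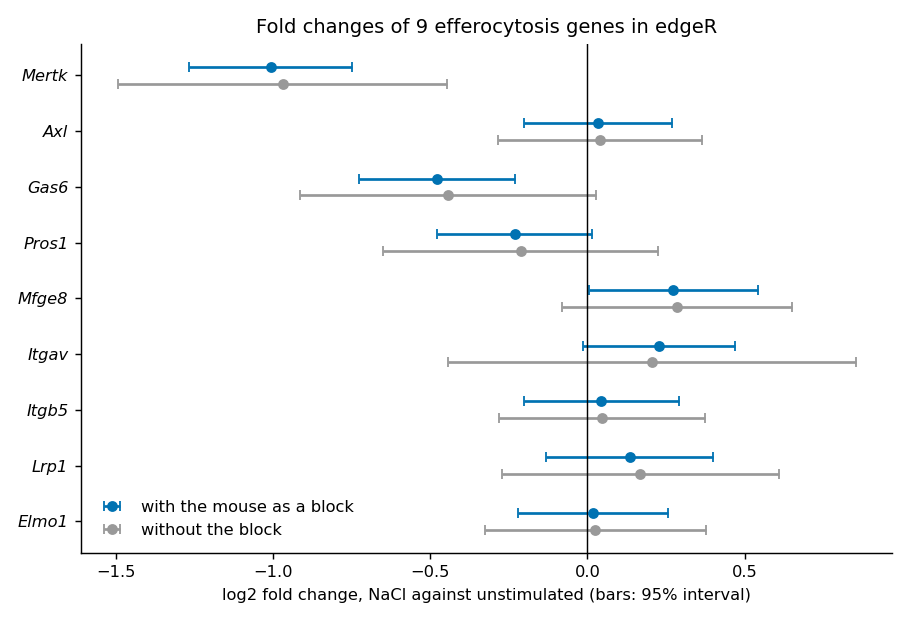
Log2 fold change of NaCl against unstimulated control in edgeR for 9 members, with 95% intervals, with the mouse as a block (blue) and without it (grey). *Tyro3* is left out because its counts were at the floor. The paired interval of *Mertk* runs from -1.27 to -0.75 and that of *Gas6* from -0.73 to -0.23, and the unpaired interval of *Gas6* includes 0.

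Levels of different genes were compared per length, as CPM per kb of exonic length in GENCODE M21. In control BMDMs *Lrp1* led with 262 ± 23.0 CPM per kb, followed by *Itgb5* (124 ± 13.5), *Gas6* (101 ± 14.6), *Mfge8* (71.2 ± 7.42), *Itgav* (36.0 ± 12.7), *Axl* (34.0 ± 3.29), *Mertk* (21.5 ± 4.43), *Pros1* (20.4 ± 3.29) and *Elmo1* (13.0 ± 1.47), with *Tyro3* last at 0.0628 ± 0.0238 (SD, n = 3 for each gene). Over the 3 control libraries the ranges of *Itgb5* and *Gas6*, *Itgav* and *Axl*, and *Mertk* and *Pros1* overlapped. The order within these pairs is not beyond their spread. In control *Gas6* (85.5 to 114.4) lay above *Mfge8* (64.2 to 79.0), and *Pros1* (17.55 to 24.0) above *Elmo1* (11.5 to 14.5). The ranges of these overlapped only with the NaCl libraries included. In NaCl the mean of *Mertk* was 10.9 ± 3.71 CPM per kb, below the means of *Pros1* (17.6 ± 4.64) and *Elmo1* (13.2 ± 2.22). The NaCl range of *Mertk* (8.73 to 15.2) overlapped those of *Pros1* (14.6 to 22.9) and *Elmo1* (10.7 to 14.8). In NaCl replicate 1 *Mertk* lay above *Elmo1*. The order depends on which length is used. Per coding length *Mfge8* moved from rank 4 to rank 2, *Elmo1* from 9 to 6 and *Mertk* from 7 to 9, while *Lrp1* stayed first and *Tyro3* last.

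**Figure D4:**
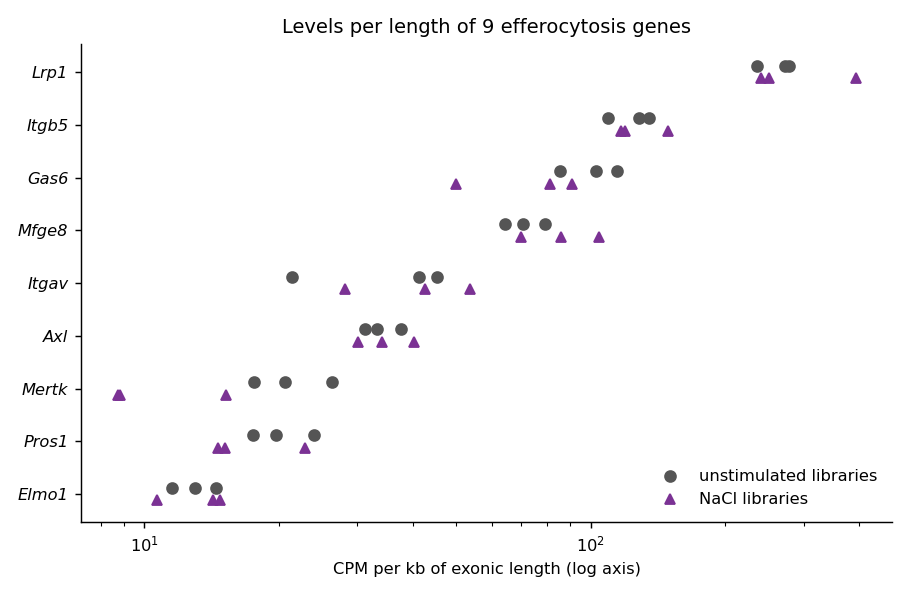
CPM per kb of exonic length (log axis) of 9 members in the 3 unstimulated control libraries (circles) and the 3 NaCl libraries (triangles). *Lrp1* lies above all other members with 236 to 392 CPM per kb. *Tyro3* (at most 0.0895 CPM per kb) is not drawn.

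The genes around these members were examined in 8 lists with 89 genes, of which 82 were among the genes tested. The lists were chosen with earlier results of these data known. In the paired fit 17 of the 82 were lower and 6 higher, and their median log2 fold change was -0.07. Over all genes tested, 4.3% were lower and 4.6% higher, shares to be read beside every list count below. Without the block 0 were lower and 1, *Abca7*, was higher, beside 0.176% and 0.478% of all genes tested. Every other call of a list gene below was lost in the unpaired fit of edgeR. In the list of 10 TAM partners, which holds enzymes of vitamin K-dependent carboxylation, sheddases and signalling genes, 0 were lower and 1, *Socs3*, was higher in the paired fit of edgeR. *Socs3* encodes a suppressor of cytokine signalling and averaged 1.51 ± 1.32 CPM in control cells and 3.16 ± 1.65 CPM with NaCl (adjusted p = 0.0379 in edgeR, 0.453 without the block). Its counts were low, with 26, 4 and 24 in control and 45, 28 and 8 in NaCl. The log2 ratio was 2.31 in mouse 2, where control held 4 counts, and 0.73 and 0.59 in mice 1 and 3. *Adam17*, the sheddase that cleaves MerTK from the cell surface, averaged 301 ± 4.03 CPM in control cells and 328 ± 11.1 CPM with NaCl (log2 fold change 0.12, adjusted p = 0.592 in edgeR).

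Of the other recognition receptors 14 of 16 were tested. In the paired fit 6 were lower and 0 higher, beside 4.3% and 4.6% of all genes tested. *Cd36*, a scavenger receptor of oxidised lipids and apoptotic cells, fell from 5424 ± 419 to 3140 ± 840 CPM, *Stab1*, a phosphatidylserine receptor, from 1567 ± 181 to 1095 ± 211 CPM, *Havcr2*, the gene of Tim-3, from 87.0 ± 20.3 to 54.8 ± 6.15 CPM, and *Cd300lf* from 12.8 ± 3.69 to 5.99 ± 0.353 CPM (n = 3 each). Their log2 fold changes were -0.82, -0.53, -0.64 and -1.06 in the same order. The study had singled out *Cd36* and *Cd300lf* on these libraries, so their direction is no independent evidence. *Timd4*, the gene of the phosphatidylserine receptor Tim4, had 5, 3 and 4 counts in control and 2, 1 and 0 counts in NaCl, and a difference was not detectable at this depth. Of the 10 other bridging and opsonising genes 8 were tested, with 4 lower and 0 higher, beside the same shares of all genes. *Thbs1*, whose product thrombospondin-1 links apoptotic cells to CD36 and αvβ3, fell from 90.7 ± 54.9 to 44.2 ± 34.9 CPM, by -1.12 on the log2 scale (adjusted p = 1.64e-06 in edgeR, 0.457 without the block), with mouse 1 highest in both groups. *Calr*, the gene of calreticulin, fell from 1184 ± 178 to 804 ± 30.6 CPM, *Edil3*, a relative of *Mfge8*, from 5.89 ± 1.03 to 2.75 ± 0.738 CPM, and *C1qc*, a chain of complement C1q, from 608 ± 86.5 to 454 ± 106 CPM. *C1qa* and *C1qb* had log2 fold changes of -0.20 and -0.18 and did not pass. For both lists the unpaired fit of edgeR called 0, as it did for *Mertk* and *Gas6*.

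Among 9 tested partners of the integrins, 2 were lower and 1 higher. *Itgb3*, the β3 subunit that pairs with αv in the other MFG-E8 receptor, fell from 17.5 ± 0.775 to 11.4 ± 3.72 CPM (log2 fold change -0.64, adjusted p = 0.0199 in edgeR, 0.304 without the block), and *Itgb1* from 821 ± 54.1 to 619 ± 85.0 CPM. *Ptk2*, the gene of focal adhesion kinase, rose from 40.8 ± 6.96 to 72.5 ± 19.2 CPM. Of 8 tested partners and relatives of *Lrp1*, 2 were lower, *Pdia3*, a disulfide isomerase of the endoplasmic reticulum that works with calreticulin, and *Lrp6*, a Wnt co-receptor of the same receptor family, with log2 fold changes of -0.58 and -0.44. In the engulfment module around *Elmo1*, 1 of the 13 tested genes was lower and 2 were higher. *Dock1*, the gene of the DOCK180 partner of ELMO1, fell from 68.6 ± 3.70 to 50.7 ± 2.39 CPM (log2 fold change -0.44, adjusted p = 0.0191 in edgeR, 0.179 without the block). Every NaCl library of *Dock1* lay below every control library, which 10.1% of all genes tested also showed. *Dock5* rose from 38.4 ± 4.81 to 68.3 ± 11.0 CPM and *Rac2* from 284 ± 18.7 to 390 ± 90.2 CPM. *Dock2*, the DOCK gene most associated with blood cells, was at 736 ± 22.1 and 851 ± 44.8 CPM (adjusted p = 0.31 in edgeR).

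In the list of corpse handling and lipid sensing, 2 of 12 genes were lower and 1 higher. *Abca1*, the cholesterol exporter, fell from 234 ± 146 to 166 ± 116 CPM and *Ppard*, a lipid-sensing nuclear receptor, from 24.3 ± 7.97 to 17.1 ± 7.27 CPM, with mouse 1 highest in each group. *Abca7*, a related transporter, rose from 87.9 ± 6.88 to 143 ± 6.73 CPM and was the 1 gene of all 8 lists that also passed without the block (adjusted p = 0.043 in edgeR). Of 8 genes of inhibitory and find-me signals, 1 was higher, *Cx3cr1*, the receptor of the find-me chemokine CX3CL1, whose locus carries the GFP sequence in these mice. Its mean was 89.6 ± 19.8 CPM in control cells and 148 ± 13.2 CPM with NaCl.

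**Figure D5:**
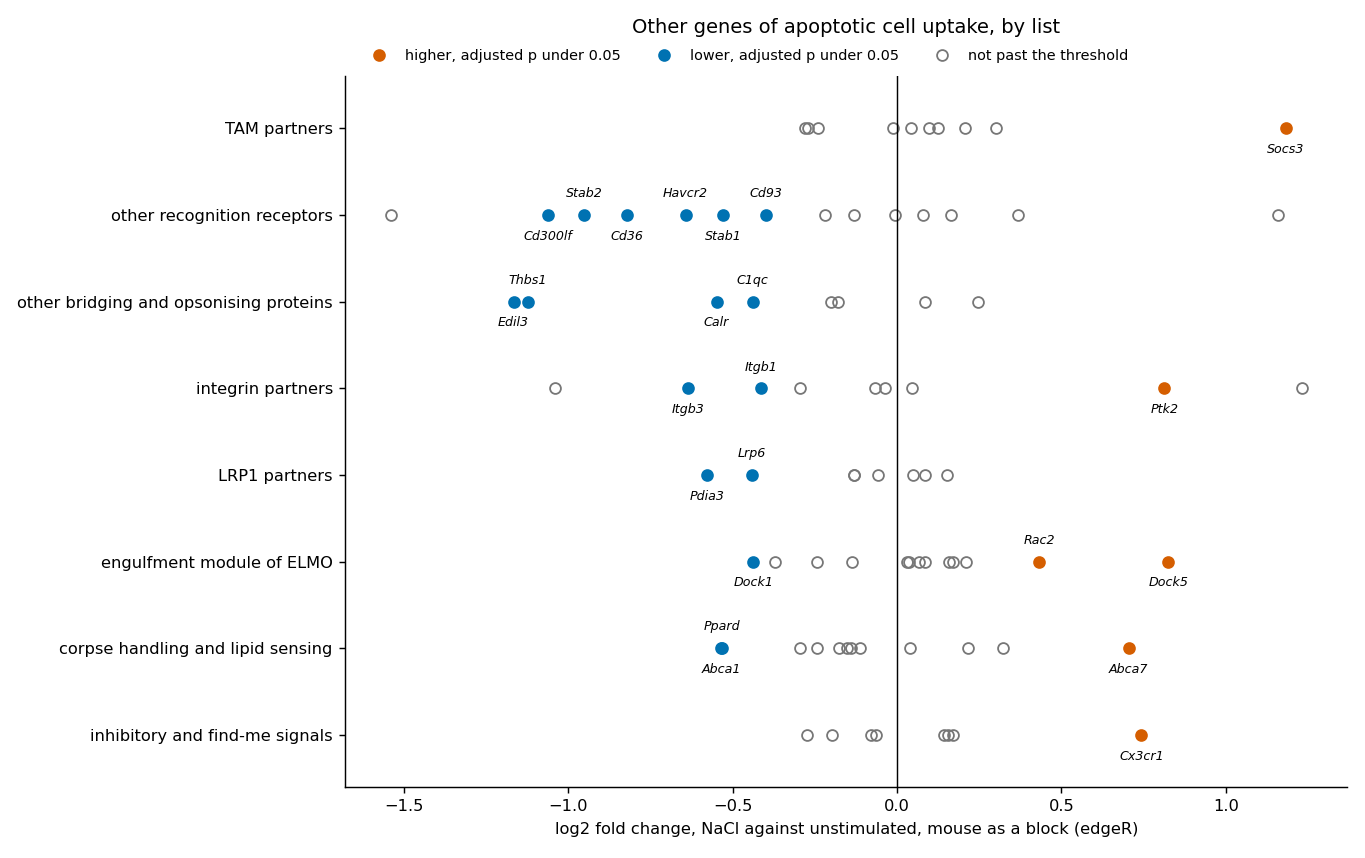
Log2 fold changes of NaCl against unstimulated control in the paired fit of edgeR for the 82 tested genes of 8 lists, with 1 point per gene. Filled points passed an adjusted p of 0.05 (blue lower, orange higher) and carry the gene symbol. In the lists of other recognition receptors and of other bridging proteins, 6 and 4 genes were lower and 0 higher. Over all genes tested, 4.3% were lower and 4.6% higher.

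The genes whose response was most like that of *Mertk* were sought among 8834 other genes with a mean of at least 100 counts, by the root mean square difference of the log2 ratios within the 3 mice. The nearest were *Zcchc24* (0.0757), *Slc7a1* (0.0781), *Entpd1* (0.0809), *Adra1a* (0.0968) and *Csf3r* (0.103). *Slc7a1* encodes a cationic amino acid transporter, *Entpd1* the ectonucleotidase CD39 and *Csf3r* the G-CSF receptor. *Entpd1* had 166, 70.5 and 70.7 CPM in control cells of mice 1, 2 and 3 and 100.02, 28.1 and 33.1 CPM with NaCl, so that its level in mouse 1 in NaCl was above that of mice 2 and 3 in control. This measure was chosen on the same libraries and has no test.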

How the data were processed

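Polyadenylated RNA of BMDMs was sequenced from 3 mice, with an untreated culture and a culture in 62 mM excess NaCl (24 h) of each. Per the methods and labels, reads of 75 bases (single-end, no strand) were trimmed with fastp 0.20.0 and aligned with STAR 2.7.10b, and the authors deposited a raw read count for each gene and, as a normalized signal, the same counts divided by a DESeq2 1.40.2 size factor. The deposited signal equalled raw count over 1 factor per library to a relative deviation of 5e-15 at most, and only the raw counts were analysed. The methods pair mm10 with GENCODE vM32, a release for a different build, and genes are therefore placed by chromosome. Lengths and overlaps came from GENCODE M21 by gene identifier and promoters from RefSeq (GRCm38.p6), in which 10 of 10 members had a window.

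Genes whose summed count reached 10 entered edgeR 4.0.16 (TMM, glmQLFit, glmQLFTest) with the mouse as a block, because the labels tie libraries of the same number to 1 mouse. As a check, deviations from the group means correlated across genes by 0.43, 0.15 and 0.22 for libraries of the same mouse and from -0.35 to 0.12 for others. The methods of the study name no block, so for the members the fit without it stands beside each call it changes. For the lists and markers it is given as counts of calls, with adjusted p-values for some genes. Standard errors are the log2 fold change over the root of F, and log2 ratios within mice used a prior count of 2. Alternatives were DESeq2 1.42.0 and limma 3.58.1 (voom), other scalings and filters, thinning to 4088065 counts and leaving out mice or libraries, with 1 further alternative chosen after seeing the data (mouse 3 left out without the block). Named were all members, up to 4 genes past the threshold per list, *Adam17*, *Itgb3*, *Timd4*, *Dock1* and *Dock2*, and the 5 genes most like *Mertk*, and *C1qa*, *C1qb* and the higher markers, which were named after their values were seen. Members and lists were chosen with earlier results of these data known. The scripts were tested on simulated data. R 4.3.3 was used.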

Additional observations from a re-analysis of the deposited data

How the results depend on the processing

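The fall of *Mertk* kept its direction in all alternatives, with log2 fold changes from -1.29 to -0.80, and the adjusted p stayed under 0.05 in every paired fit, including those without 1 mouse. The number of members lower was 2, and it was 0 without the replicate block and 1 in DESeq2 without it. Without 1 mouse in the paired fit it was from 1 to 2, and without 1 library in the unpaired fit from 0 to 1, the 1 being *Mertk* without NaCl replicate 1 (adjusted p = 0.020 in edgeR). The number of members higher was 0, and from 0 to 1 without 1 mouse, with *Itgav* past the threshold without mouse 2 and *Mfge8* without mouse 3. *Gas6* lost its call in all fits without the block and, in the paired fit, without mouse 1 (log2 fold change -0.54) or mouse 3 (-0.33), and its direction was kept in all alternatives (from -0.61 to -0.23). No member besides these changed its side of the threshold.

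Against 17 list genes lower and 6 higher, there were 0 and 1 without the replicate block, 10 lower in DESeq2 with it, 3 lower in DESeq2 without it, 11 lower after thinning to the smallest library, from 9 to 15 lower and from 4 to 6 higher without 1 mouse, and from 0 to 1 lower and from 0 to 2 higher without 1 library in the unpaired fit. Over all genes tested, 684 were lower and 732 higher, against 28 and 76 without the block, 354 and 452 in DESeq2 with it, 155 and 245 in DESeq2 without it, and 346 and 463 after thinning. Without 1 mouse they were from 417 to 661 and from 469 to 758, and without 1 library in the unpaired fit from 0 to 46 and from 8 to 123, with from 1 to 25 and from 8 to 46 where a control library and from 0 to 46 and from 9 to 123 where a NaCl library was left out. Without NaCl replicate 2 the counts were 0 and 22. With mouse 3, which gave the smallest and the largest library, left out of the unpaired fit, a setting chosen after seeing the data, edgeR called 0 members and 0 list genes, and over all genes 0 lower and 5 higher (997 at an unadjusted p under 0.05). *Mertk* then had a log2 fold change of -0.96 (adjusted p = 0.689), *Gas6* of -0.33 (adjusted p = 0.746) and *Elmo1* of -0.021. The causes were not tested.

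Log2 fold changes near 0 changed sign when a mouse or library was left out. In the paired fit, leaving out 1 mouse gave from -0.033 to 0.18 for *Itgb5* (negative without mouse 2), from -0.038 to 0.27 for *Lrp1* (negative without mouse 2) and from -0.030 to 0.092 for *Elmo1* (negative without mouse 3). In the unpaired fits, leaving out 1 library gave -0.055 for *Itgav*, -0.034 for *Itgb5* and -0.048 for *Elmo1* without control replicate 1, -0.011 for *Axl* without control replicate 2, -0.076 for *Axl* without NaCl replicate 1, -0.070 for *Itgb5*, -0.088 for *Lrp1* and -0.057 for *Elmo1* without NaCl replicate 2, and -0.024 for *Itgav* and -0.029 for *Elmo1* without NaCl replicate 3, against highest values of 0.14 for *Axl*, 0.16 for *Elmo1*, 0.42 for *Itgav*, 0.12 for *Itgb5* and 0.30 for *Lrp1*. The mean differences of the count ratios kept their direction under all alternatives. For *Itgav* to *Itgb5* mouse 2 went the other way on the log2 scale (-0.16, against 0.26 and 0.46 in mice 1 and 3). Without mouse 3 the mean difference of this ratio was 0.05. In the paired form the exact sign-flip test gave p = 0.25 for *Mertk* to *Axl*, the smallest that 3 mice allow. The depth of NaCl replicate 3 limits what can be said of *Tyro3* and *Timd4*.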
